A study of Mus musculus with 2 samples.

Results

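The heat shock proteins and DnaJ chaperones were read on 2 one-colour Agilent arrays, 1 with RNA of wild-type (WT) and 1 with RNA of MeXis null mouse peritoneal macrophages. The genes were chosen by name: every probe whose gene symbol on the array starts with Hspa, Hspb, Hspd, Hspe or Hsph and a digit, with Hsp90, or with Dnaja, Dnajb or Dnajc and a digit, Dnajc25 being left out. That gave 153 probes for 71 genes, out of 56605 probes and 36996 gene names on the array. MeXis is a long noncoding RNA studied here in macrophage cholesterol efflux. Both groups are given as bl6 mice, cultured in DMEM with serum, and the labels name no drug, ligand or heat treatment. Each array held RNA pooled from 3 samples, so the spread between samples was not measured, the difference between genotypes has no replicate check and no p-value is given. The labels give neither the age of the mice nor how the null allele was made.

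Molecular chaperones keep newly made and damaged proteins from clumping. HSP70 proteins (the Hspa genes) bind exposed hydrophobic stretches in a cycle driven by ATP, DnaJ proteins deliver clients and speed that cycle, HSP110 proteins exchange its nucleotide, HSP90 proteins finish the folding of kinases and receptors, and the HSP60 and HSP10 pair folds proteins inside mitochondria. Small heat shock proteins (Hspb) hold unfolded proteins without ATP and are abundant in muscle and other contractile cells. Heat shock factor 1 (Hsf1) switches on many of these genes together by binding inverted GAA repeats in their promoters, and macrophages use the same chaperones in antigen handling and during inflammation.

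The processed signal of a spot is its background-subtracted brightness on a linear scale. Differences are log2 of MeXis null over WT after each array was scaled to its 75th percentile, so that 1.00 is a doubling. A gene was read from its brightest probe and called higher or lower where it was well above background on both arrays, differed at least 2-fold and exceeded the 95% limit of the scanner's own error. The scanner error understates the noise of these arrays: among 285 probes printed 5 or more times, spots of the same probe differed with a median SD of 0.47 in that log2 difference, which puts a 95% limit at 0.91 (1.88-fold). The difference also drifted across the array surface. Each value is therefore followed, where it matters, by the value after a local surface correction, which subtracts the median difference of the 100 nearest spots and lowers that SD to 0.33 (limit 0.64, or 1.56-fold).

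Of the 59305 non-control spots, 48.0% were well above background in WT and 44.3% in MeXis null. The probe for MeXis itself (AI427809 on the array) gave signals of 12.3 and 8.44, too dim to be called present in either genotype, so it does not check the labels. Of the macrophage markers, 11 of 12 were above background on both arrays, with Cd68 at 115942 in WT and 196155 in MeXis null, and Csf1r at 95701 and 55382.

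Of the 71 chaperone genes, 62 were well above background on both arrays, 8 on neither and 1 on WT only. The 8 were Dnajb7, Dnajb8, Dnajc5b, Dnajc5g, Dnajc6, Dnajc22, Hspa12b and Hspb3. Hspa12a, a distant HSP70 relative, read 35.2 in WT and 12.7 in MeXis null, where it was not well above background, so it was at least 1.36-fold higher on WT; its measured difference of -1.54 lay within the 95% limit of its scanner error of 0.85. Of the 62 measured genes, 8 (12.9%) were called higher in MeXis null against 7.65% of all 15463 genes measured, and 1 (1.61%) was called lower against 4.56%. The 8 were Hspb1, Hspb2, Hspb8, Hspd1, Hsp90aa1, Hspa14, Dnaja2 and Dnajc24, and the 1 was Hspa8. After the surface correction 3 were higher (4.84%, against 3.62% of all genes), namely Hspb1, Hspb2 and Hspb8, and 1 was lower (1.61%, against 3.43%), now Dnajb1 in place of Hspa8. The family as a whole was centred near 0: its median difference was -0.07 against 0.05 for all genes, and -0.09 against -0.04 after the correction; with the median of each gene's probes in place of the brightest it was 0.10 against 0.14. Its SD over genes was 0.68 against 0.66 for all genes, and 32 of 62 genes lay below 0.

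**Figure D1:**
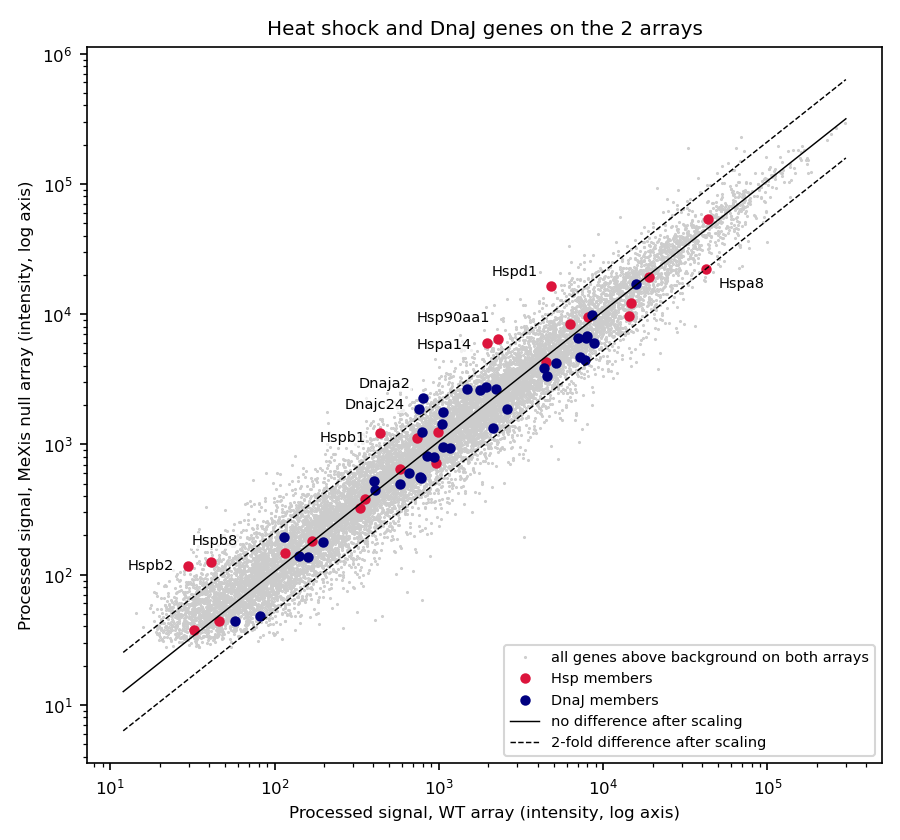
Processed signal (intensity, log axes) on the WT array and on the MeXis null array for 62 heat shock and DnaJ genes (Hsp red, DnaJ blue) over all 15463 genes above background on both arrays (grey), with lines for no difference and for 2-fold differences after scaling. Most of the family lies between the 2-fold lines; the 9 genes called at 2-fold are named, 8 above and Hspa8 on the lower line.

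The small heat shock proteins were the role group with the most calls. Of 7 genes, 6 were measured on both arrays, and 3 of these were called higher and 0 lower, with or without the surface correction. The median difference of the 6 was 0.77, and 0.79 after the correction. Hspb1 (HSP27), which binds unfolded proteins and actin filaments, read 438 in WT and 1217 in MeXis null, a difference of 1.40 with a scanner error of 0.20, and 1.64 after the correction. Its probe lies at chr5:136365366-136365425 (mm9, + strand). Hspb1 was therefore higher in MeXis null by more than the spread between spots, and its neighbourhood on the array leaned the other way (local median difference -0.24).

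Hspb2, a small heat shock protein of muscle, read 29.9 in WT and 116 in MeXis null at chr9:50559211-50559270 (mm9, - strand). The difference was 1.89 with a scanner error of 0.32, and 1.47 after the correction. Hspb8, which works with the co-chaperone Bag3 to send misfolded proteins to autophagy, read 40.8 and 126 at chr5:116859063-116859122 (mm9, - strand). Its difference was 1.55 with a scanner error of 0.25, and 1.37 after the correction. Hspb2 and Hspb8 were dim: in WT neither reached 4 times the lowest signal well above background of the MeXis null array. With another background correction (normexp) their differences were 0.87 and 0.73, below the 2-fold limit. Normexp started from the raw spot signals, so it also left out the surface detrending that the array software had applied to the processed signal. Scaled to the spike-in probes in place of the 75th percentile, which moved the median of all genes to -0.69, Hspb1, Hspb2 and Hspb8 gave 0.65, 1.14 and 0.80, of which Hspb2 alone was called.

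The brightest probes of the other small heat shock proteins measured on both arrays, Hspb6, Hspb7 and Hspb9, were near 0 before the correction. Hspb6, a partner of smooth and heart muscle filaments, read 353 and 382 (difference 0.04, or 0.20 after the correction). A second Hspb6 probe was well above background on MeXis null alone, at 18.4 and 72.8, a difference of 1.91 (1.498 corrected) with a scanner error of 0.44, so the probes of this gene disagreed. Hspb7 read 169 and 181, a difference of 0.03 that became -0.84 after the correction because nearby spots leaned towards MeXis null by 0.87. Hspb9, a testis gene, read 32.3 and 37.3 (0.13, and 0.06 corrected). Hspb3, at 4.12 and 27.0, was above background in neither genotype, so its difference could not be read.

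The crystallins Cryab and Cryaa are small heat shock proteins without the Hsp name, and were looked up after the values of the Hspb genes had been seen. Cryab, a partner of desmin and actin filaments, read 583 in WT and 1566 in MeXis null (difference 1.35, and 1.29 corrected). Cryaa, best known from the lens, read 31.2 and 156 (2.25, and 1.64 corrected). Both were above the 2-fold limit either way. Cryaa was dim in WT, close to Hspb2 (29.9) and to the lowest signal well above background of the MeXis null array (27.3). No normexp or spike-in value is given for either crystallin.

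Markers of stromal cells were mostly higher on the same array. Of the smooth muscle list, 5 of 8 genes were measured on both arrays and 3 were called higher, with a median of 1.53 (1.21 corrected) and a summed signal of 9438 in WT and 15730 in MeXis null. Tagln (2.13) and Des (1.70) were its highest genes and Acta2 (0.38) and Smtn (0.66) its lowest. The defining contractile gene Myh11 read 26.3 and 29.4 and was above background on WT only, and Cnn1 and Lmod1 were above background on neither. Of the fibroblast list, 6 of 10 measured genes (12 listed) passed 2-fold upwards and 0 downwards, and the median was 1.09 (0.80 corrected) and the summed signal 8012 and 14408; Fbn1 (1.85) and Loxl1 (1.45) were highest, and Thy1 (0.25) and Col3a1 (-0.13) lowest. The fibroblast gene Lum went against this list, at 130.5 in WT and 40.3 in MeXis null, where it was not well above background, and was at least 3.41-fold higher on WT. Of the mesothelial list, 3 of 7 measured genes (8 listed) were higher, with a median of 0.81 (0.58 corrected) and a summed signal of 856 and 2070; Wt1 (1.61) and Upk3b (1.45) were highest, and Krt8 (0.28) and Msln (0.47) lowest. The macrophage list had 1 gene higher and 1 lower, a median of 0.43, which was -0.09 after the correction, and a summed signal of 307648 and 457421; Lyz2 (1.25) and Cd14 (0.86) were highest, and Mertk (-1.95) and Csf1r (-0.86) lowest. The proliferation list had 14 of 15 genes measured, 2 higher and 0 lower, at a median of 0.76 (0.60 corrected), from Top2a (1.84) and Ccna2 (1.56) down to Mcm3 (-0.58) and Cdk1 (-0.73).

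Several markers of B cells and eosinophils were lower in MeXis null. The B cell list had 7 of 10 genes measured, 2 lower and 0 higher, at a median of -0.79 (-1.11 corrected); Cd79b was at -1.70, and Cd22 (-0.13) and Fcrla (-0.22) were highest. Of the T and NK cell list 4 of 8 genes were measured, with 1 lower; Cd2 (-1.27) and Cd3e (-0.49) were lowest, and Prf1 (0.60) and Cd4 (0.10) highest, and Cd5, detected in WT alone, was higher there by at least 2.67-fold. Of the eosinophil list Siglecf alone was measured on both arrays (-0.73), and the summed signal was 4319 in WT and 1647 in MeXis null. The near-identical eosinophil ribonucleases Ear2 (1475 and 34.3) and Ear1 (376 and 28.6) were above background on WT only, at least 45.3-fold and 13.8-fold higher there, while Epx, Prg2 and Ccr3 were above background on neither array. The marker levels of the pools thus differed in both directions. The part of these other cell types in the small heat shock protein result was not tested. In bulk RNA, more cells of a type and more RNA per cell cannot be told apart, and with 1 pool per genotype neither can the genotype and the pool.

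**Figure D2:**
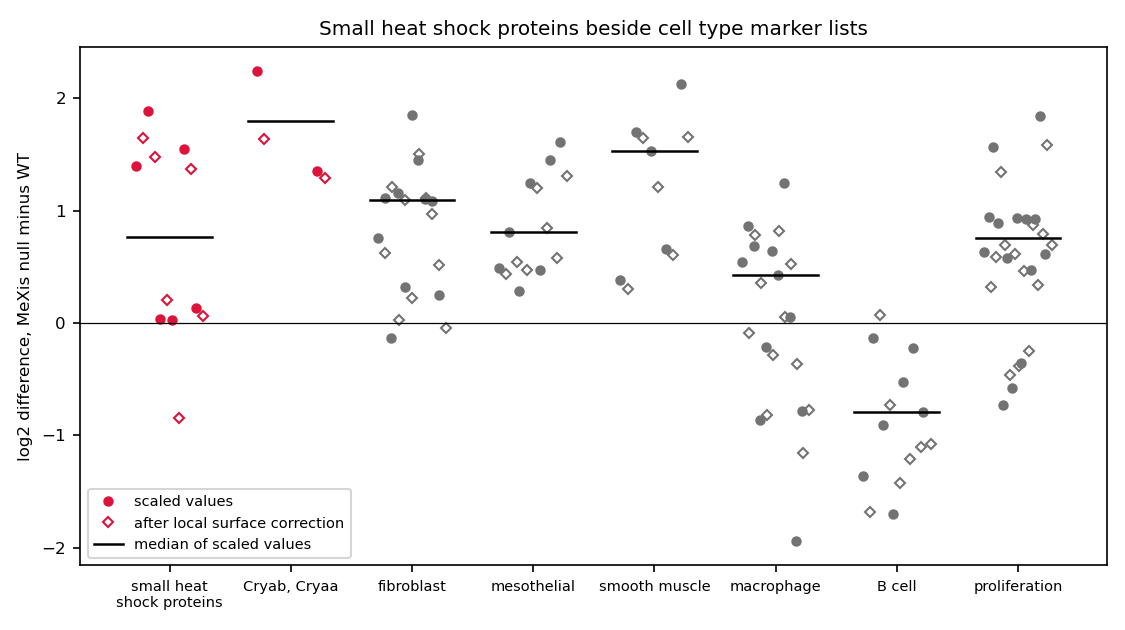
Log2 difference (MeXis null minus WT) of each measured gene of the small heat shock proteins, of Cryab and Cryaa, and of 6 marker lists, as scaled (dots) and after the local surface correction (diamonds), with the median of the scaled values as a line. The dots of Hspb1, Hspb2 and Hspb8 lie at 1.40 or more and those of Hspb6, Hspb7 and Hspb9 near 0. The diamond of Hspb8 lies at 1.37 and that of Hspb7 at -0.84. The fibroblast, mesothelial and smooth muscle medians are 1.09, 0.81 and 1.53, and the B cell median is -0.79.

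Among the cytosolic HSP70 genes, 6 of 8 were measured on both arrays, with a median of -0.12 (-0.08 corrected), 1 called higher and 1 lower. Hspa8 (HSC70), the constitutive HSP70 that also uncoats clathrin vesicles and delivers proteins to lysosomes, read 42084 in WT and 22138 in MeXis null from its brightest probe. The difference of -1.001, with a scanner error of 0.20, lay on the 2-fold limit and was -0.62 after the correction. Its 4 probes, all in 1 transcript on the + strand of chromosome 9 (mm9), are shown from 5′ to 3′ because they gave different answers.
Hspa8 probe chr9:40610620-40610679: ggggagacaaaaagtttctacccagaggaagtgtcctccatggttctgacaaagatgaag
Hspa8 probe chr9:40611362-40611421: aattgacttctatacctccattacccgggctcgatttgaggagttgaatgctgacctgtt
Hspa8 probe chr9:40611841-40611900: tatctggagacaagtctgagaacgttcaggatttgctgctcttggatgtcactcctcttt
Hspa8 probe chr9:40612755-40613050: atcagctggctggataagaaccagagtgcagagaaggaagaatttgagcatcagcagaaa

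The first of these Hspa8 probes read 2679 in WT and 5744 in MeXis null, a difference of 1.03. The next read 17188 and 26276 (0.54), the third 27498 and 20263 (-0.52), and the last, which crosses an intron, gave the -1.001 above. The differences thus ran in order along the transcript, from higher to lower in MeXis null. After the surface correction the same probes gave 0.40, 0.00, -0.01 and -0.62, so the range of 2.03 between probes shrank to 1.01. The median of the 4 uncorrected differences was 0.01, and Hspa8 is not called by that measure.

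The stress-inducible HSP70 genes did not differ by 2-fold. Hspa1a read 959 in WT and 722 in MeXis null (difference -0.49 with a scanner error of 0.20, and -0.84 corrected), and Hspa1b read 117 and 148 (0.27 with a scanner error of 0.22, and 0.01 corrected). These near-identical genes may share signal, so which copy gave it is uncertain; their RefSeq promoters differ at only 4 of 300 bases. The testis genes Hspa1l and Hspa2 lay at -0.13 and -0.12. Hspa14, a ribosome-bound HSP70, read 1956 in WT and 6050 in MeXis null from its brightest probe (1.55 with a scanner error of 0.20, and 0.61 corrected). Its other measured probes gave -0.40 and 0.15, and the median over its probes, 0.15, was not called. The probe at -0.40 read 3787 in WT and 3023 in MeXis null. In WT it was thus brighter than the called probe, which ranked as brightest through its MeXis null signal. With normexp Hspa14 gave 0.97, under the 2-fold limit. The spots around the called Hspa14 probe leaned towards MeXis null by 0.95.

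The HSP110 genes, which release nucleotide from HSP70, had a median of -0.15 (-0.25 corrected) over 3 genes. Hsph1 read 4492 in WT and 4254 in MeXis null (-0.15 with a scanner error of 0.20, and -0.25 corrected). Hspa4 read 14434 and 9750 from its brightest probe (-0.64, and -0.68 corrected), with -0.54 and 0.79 from its other probes. Hspa4l, common in testis, gave 0.26 (-0.05 corrected).

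The cytosolic HSP90 genes gave unequal differences. Hsp90ab1, the constitutive form, read 43641 in WT and 53333 in MeXis null, a difference of 0.21 with a scanner error of 0.20, and 0.22 corrected. Hsp90aa1, the inducible form, read 2295 and 6451 from its brightest probe, a difference of 1.42 with a scanner error of 0.20, and 0.72 corrected. Its other measured probe read 2596 and 3068, a difference of 0.17 and of -0.14 corrected. The probes lie in 1 transcript on the - strand of chromosome 12 (mm9), close together, and are shown because 1 was called and its neighbour was not; the called probe, listed first, lies nearer the 3′ end and crosses an intron.
Hsp90aa1 probe chr12:111932511-111932796: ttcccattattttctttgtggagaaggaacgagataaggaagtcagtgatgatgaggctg
Hsp90aa1 probe chr12:111933318-111933377: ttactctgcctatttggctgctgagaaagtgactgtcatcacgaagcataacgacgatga

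Of the 8 mitochondrial chaperones, 1 was called higher and 0 lower, and the median was -0.06 (-0.04 corrected). Hspd1 (HSP60), the barrel in which imported proteins fold, read 4804 in WT and 16299 in MeXis null (difference 1.69 with a scanner error of 0.20, and 0.90 corrected). Its other probe read 1052 and 1970 (0.83, and 0.38 corrected). Both Hspd1 probes were thus higher in MeXis null, and the brighter one kept a difference above the spot limit of 0.64 after the correction. Hspe1 (HSP10), the lid of that barrel, read 6292 and 8355 from its brightest probe (0.33 with a scanner error of 0.20, and 0.12 corrected). Its other probes gave larger differences and are shown in 5′ to 3′ order on the + strand of chromosome 1 (mm9); the second crosses an intron.
Hspe1 probe chr1:55145916-55145975: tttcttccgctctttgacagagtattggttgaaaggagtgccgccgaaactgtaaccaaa
Hspe1 probe chr1:55147620-55147946: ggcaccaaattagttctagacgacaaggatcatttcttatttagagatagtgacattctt

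The first of these Hspe1 probes read 3358 in WT and 8719 in MeXis null (1.30, and 1.497 corrected). The second read 317 and 555 (0.73, and 0.51 corrected). All 5 probes of Hspd1 and Hspe1 were therefore higher in MeXis null before and after the correction, from 0.33 to 1.69 and from 0.12 to 1.497. Hspa9 (mortalin), the mitochondrial HSP70 that pulls proteins through the inner membrane, read 8134 and 9444 (0.14 with a scanner error of 0.20, and -0.07 corrected). The DnaJ partners of the mitochondrion ranged from Dnajc15 at -0.70 (-0.46 corrected) to Dnajc30 at 0.19 (-0.01 corrected).

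All 13 chaperones of the endoplasmic reticulum (ER) were measured, and 0 passed the 2-fold limit in either direction, with or without the correction. Their median was -0.22 (-0.20 corrected) and they ranged from -0.56 to 0.70. Hspa5 (BiP), the ER HSP70, read 14766 in WT and 12231 in MeXis null (-0.35 with a scanner error of 0.20, and -0.54 corrected). Hsp90b1 (GRP94), which folds Toll-like receptors and integrins, read 19053 and 19391 (-0.05 with a scanner error of 0.20, and 0.13 corrected). The BiP partners Dnajb9 and Dnajb11 lay at -0.39 and -0.38 (-0.66 and -0.37 corrected). A second probe gave 0.32 for Dnajb9 (0.35 corrected) and 0.70 for Dnajb11 (0.39 corrected), so the probes of both genes disagreed. The brightest probes kept for Dnajc10, an ER disulfide reductase, and Dnajc14 gave 0.70 and 0.67, which fell to 0.38 and 0.34 with the correction. A second measured Dnajc10 probe gave 1.11 (0.53 corrected). A brighter Dnajc10 probe, marked as an outlier and left out, read 2970 in WT and 2701 in MeXis null (-0.21). A dim Dnajc10 probe above background on WT only gave -1.91 with a scanner error of 1.48. The other Dnajc14 probe gave -0.43 (-0.22 corrected).

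The cytosolic and nuclear DnaJ proteins of classes A and B had a median of -0.32 (-0.24 corrected) over 10 measured genes of 12, with 1 called higher. Dnajb1 (HSP40), the inducible DnaJ partner of HSP70, read 7766 in WT and 4462 in MeXis null, a difference of -0.87 with a scanner error of 0.20. It was -1.09 after the correction, past the 2-fold limit, and -0.14 with normexp. Dnaja1, its constitutive relative, read 15768 and 17155 (0.05 with a scanner error of 0.20, and 0.15 corrected). Dnaja2, another constitutive partner of Hspa8, read 805 and 2266 (1.42 with a scanner error of 0.20, and 0.80 corrected) from its only probe, at chr8:88062657-88062716 (mm9, - strand). Beside Dnajb1, Dnajb2, Dnajb6 and Dnajb13 passed the lower limit of 1.5-fold before the correction, at -0.76, -0.63 and -0.84. After it, Dnajb13, a gene of motile cilia, was at -0.78, and Dnajb2 and Dnajb6 were at -0.22 and -0.26. For Dnajb2 and Dnajb6 these were the brightest probes, and their other probes went the other way before the correction. A second Dnajb2 probe gave 0.89 (0.30 corrected), and the other Dnajb6 probes gave 0.25, 0.09, 0.64 and 0.03. The probe medians of Dnajb2 and Dnajb6 were 0.07 and 0.09.

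The remaining group, mostly class C DnaJ proteins with specialised clients, had a median of 0.07 (-0.01 corrected) over 14 measured genes of 18. Dnajc24, which takes part in making diphthamide on elongation factor 2, was the only one called. Its brighter probe read 758 in WT and 1881 in MeXis null (1.24 with a scanner error of 0.20, and 0.79 corrected). Its other probe read 283 and 492 (0.72, and 0.62 corrected). Dnajc24 was not called with the median of its probes (0.98) or with normexp (0.49). The probes are shown because both were higher in MeXis null and lay within 0.17 of each other after the correction; both are on the - strand of chromosome 2 (mm9), and the first is nearer the 3′ end.
Dnajc24 probe chr2:105807181-105807240: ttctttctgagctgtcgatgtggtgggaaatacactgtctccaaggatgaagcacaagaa
Dnajc24 probe chr2:105842124-105842183: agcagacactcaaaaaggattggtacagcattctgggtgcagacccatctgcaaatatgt

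Dnajc9, a histone chaperone, gave 0.78 and, after the correction, 0.07. Dnajc21, a factor of ribosome maturation, was lower on all 3 measured probes, from -1.16 to -0.10. At 1.5-fold, 11 of the 62 genes (17.7%) were higher against 18.9% of all genes, and 7 (11.3%) lower against 13.6%. After the correction 8 (12.9%) were higher against 11.4%, and 10 (16.1%) lower against 13.1%. These shares lay near the background in both directions. The 38 measured DnaJ genes had a median of -0.23 (-0.21 corrected) and the 24 measured Hsp genes 0.14 (0.03 corrected).

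**Figure D3:**
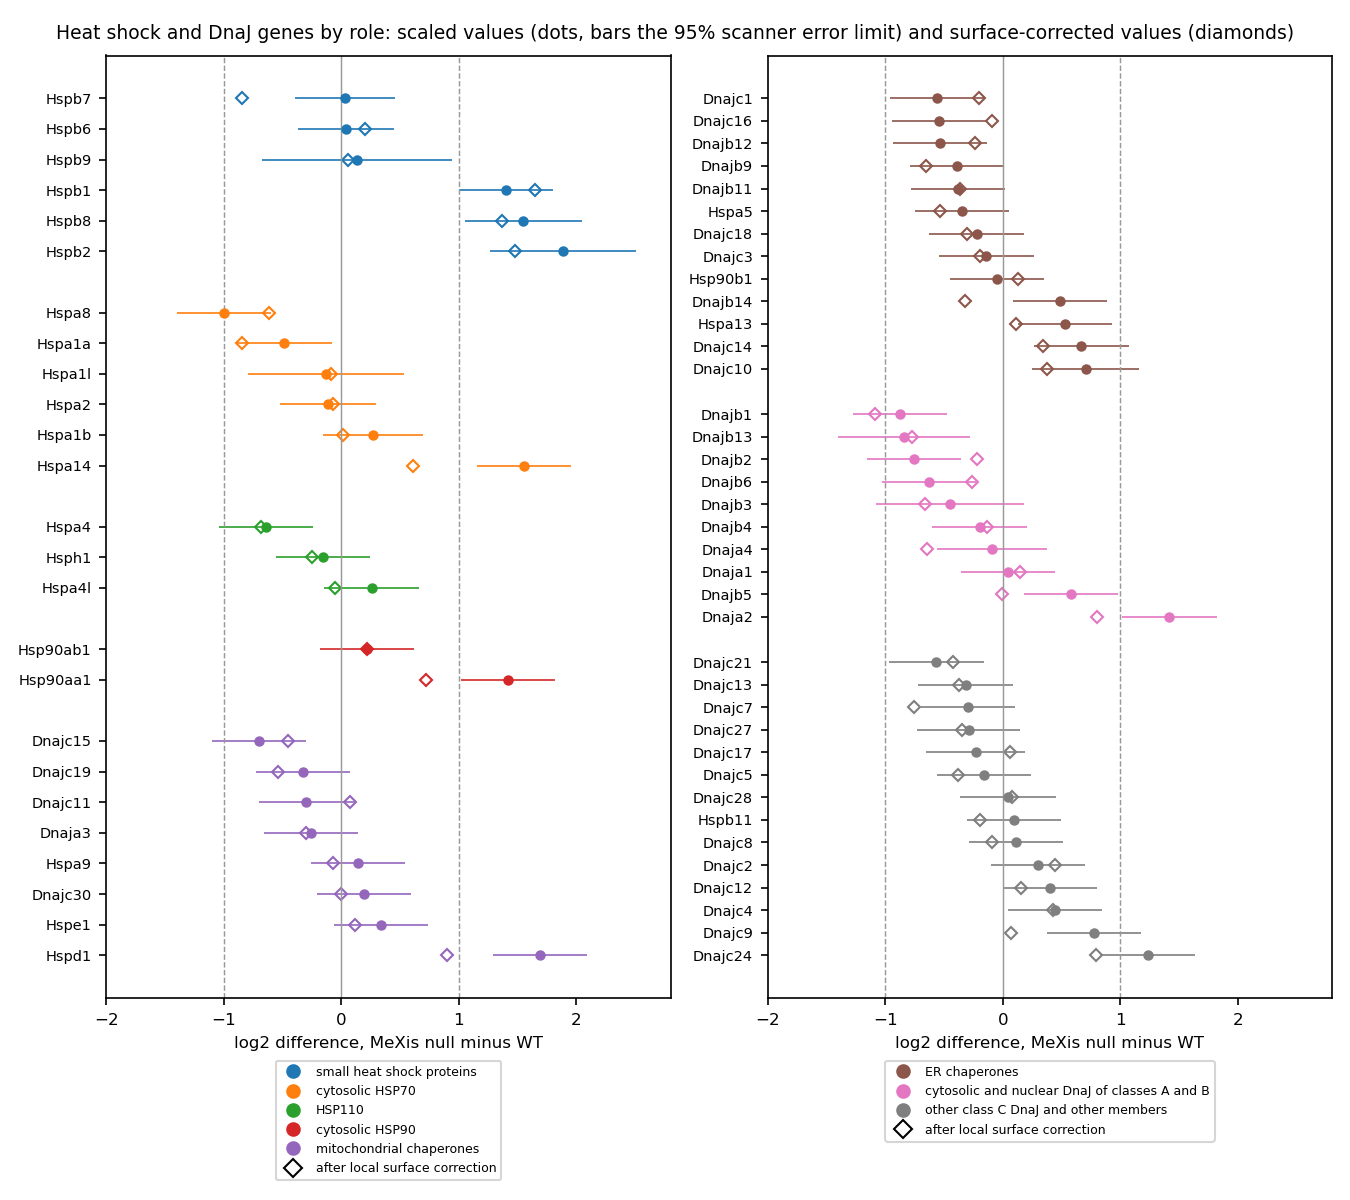
Log2 difference (MeXis null minus WT) of the 62 measured genes by role, as scaled (dots, with bars of the 95% scanner error limit) and after the local surface correction (diamonds); dashed lines mark 2-fold. Hspb1, Hspb2 and Hspb8 stay beyond 2-fold under both, while the diamonds of Hspa14, Hsp90aa1, Hspd1, Dnaja2 and Dnajc24 lie between 0.61 and 0.90 and that of Hspa8 at -0.62.

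The probes of a gene often disagreed. Of the 32 chaperone genes with 2 or more probes well above background on both arrays (81 probes), 21 (65.6%) had probes on opposite sides of 0, against 54.6% of 5206 such genes on the array. After the correction this was 15 of 32 (46.9%), against 51.5%. The median range between the probes of a gene fell from 0.86 to 0.52, against 0.69 and 0.52 for all such genes. The range was smaller after the correction in 25 of 32 genes, against 3463 of all 5206. The spots around the 8 genes called higher leaned towards MeXis null by a median of 0.53 (from -0.24 to 0.95), those around the 53 genes not called by 0.08, and those around Hspa8 leaned towards WT (-0.38). Probes nearer the 3′ end gave the lower difference in 20 of the 32 genes (median 3′ minus 5′ difference -0.30, or -0.08 corrected), against 55.6% of 5133 genes (median -0.12, or -0.13 corrected). These values compare only the end probes of a gene. By this measure Hspa8 went down towards the 3′ end, while in Hsp90aa1, Hspa14 and Hspd1 the 3′-most probe was higher by 1.25, 1.41 and 0.86. The Hspa14 probe between its end probes gave -0.40, so the Hspa14 differences did not run in order along the transcript.

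**Figure D4:**
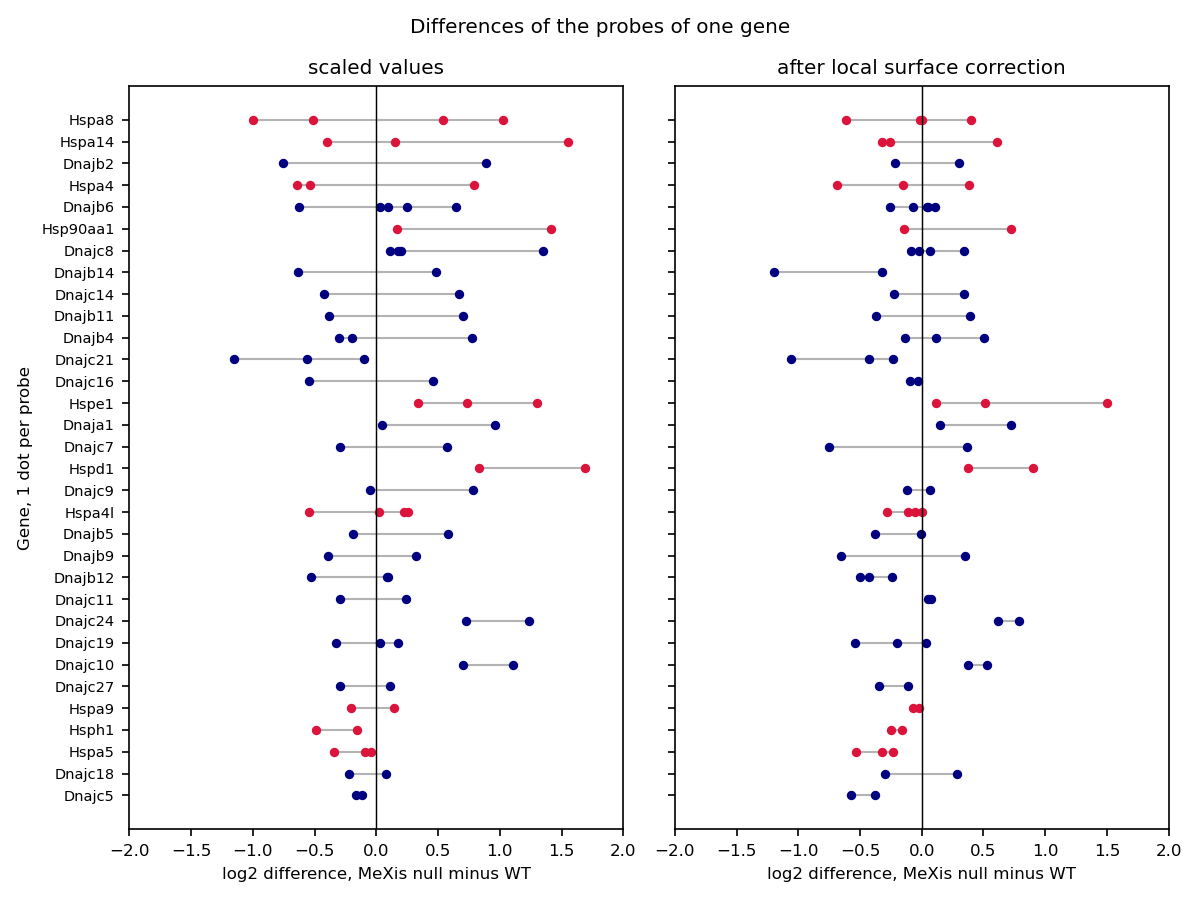
Log2 difference (MeXis null minus WT) of each probe of the 32 genes with 2 or more measured probes, as scaled (left) and after the local surface correction (right); grey lines join the probes of a gene (Hsp red, DnaJ blue). The 4 Hspa8 probes run from -1.001 to 1.03 on the left and from -0.62 to 0.40 on the right. All plotted probes of Hspd1, Hspe1, Dnajc24 and Dnajc10 lie above 0 in both panels.

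The heat shock factors and co-chaperones that act on these proteins were read as a list of 31 genes, 28 of them measured on both arrays. The list had 2 genes higher, 1 lower and a median of 0.20 (0.04 corrected). Hsf1, the main activator of the heat shock response, lay at 0.06 (-0.32 corrected) and Hsf2 at -0.09 (0.02 corrected). Bag3, the partner of Hspb8 in selective autophagy and itself an Hsf1 target, read 14738 in WT and 3972 in MeXis null (-1.97 with a scanner error of 0.20, and -1.39 corrected). Bag3 was thus lower while Hspb8 was higher in MeXis null. St13 (Hip), which steadies HSP70 on its client, read 2132 and 4844 (1.11, and 1.03 corrected). Fkbp5, an HSP90 partner, read 288 and 614 (1.01, and 0.41 corrected).

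The other pathway lists held few calls. Of the cytosolic chaperonin TRiC and its helper prefoldin, 13 of 15 genes were measured, with 0 higher, 1 lower and a median of 0.22 (0.14 corrected); the 1 was Cct6a (-1.07, and -0.44 corrected). Of 18 measured ER folding and unfolded protein response genes, 2 were lower and 0 higher, and the median was -0.18 (-0.14 corrected). These were Canx, the lectin chaperone calnexin, at 27870 in WT and 7841 in MeXis null (-1.904, and -1.17 corrected), and Sel1l, a part of the ER degradation channel, at 16837 and 5935 (-1.58, and -1.32 corrected). The 11 mitochondrial partners had 0 called in either direction and a median of 0.17 (0.06 corrected). Of 9 measured immediate early genes, which respond to handling, 1 was higher, with a median of 0.23 (-0.03 corrected); Ier2 (1.62) and Fosb (0.75) were highest, and Zfp36 (-0.93) and Egr2 (-0.63) lowest.

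Promoters of 57 of the 71 genes were matched in RefSeq (GRCm38.p6, from 250 bases before to 50 after the transcript start). Those of Hspa8, Hspa9, Hspa13, Hsp90aa1, Hsp90ab1, Hspb2, Dnajc2, Dnajc5, Dnajc5b, Dnajc11, Dnajc12, Dnajc18, Dnajc22 and Dnajc30 were not searched here. The heat shock element of 3 units, either TTC, GAA and TTC or its reverse complement GAA, TTC and GAA, with 2 free bases between neighbouring units, was searched on both strands and occurred in 4 of 57 genes (7.02%) and in 0.662% of all 27025 genes in that table. They were Hspd1, Hspe1, Hsph1 and Dnajb6. The unit pair GAANNTTC, part of the longer element and the same on both strands, was in 14 (24.6%) against 9.04%, and TTCNNGAA in 6 (10.5%) against 9.60%. CCAAT on either strand was in 25 (43.9%) against 41.1%. The stretches below show the elements in capitals, for the 3-unit genes and for Hspb1 and Hspb8, which were called higher and hold a unit pair; Hspd1 shares the Hspe1 element, the genes lying head to head on chromosome 1.
Hspe1 chr1:55088019-55088116, + strand: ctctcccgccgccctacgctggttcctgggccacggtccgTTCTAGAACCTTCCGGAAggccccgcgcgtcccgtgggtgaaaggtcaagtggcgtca
Dnajb6 chr5:29735812-29735904, + strand: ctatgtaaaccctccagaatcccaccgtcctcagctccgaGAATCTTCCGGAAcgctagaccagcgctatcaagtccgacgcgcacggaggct
Hsph1 chr5:149636287-149636308, - strand: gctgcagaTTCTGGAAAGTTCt
Hspb1 chr5:135887762-135887869, + strand: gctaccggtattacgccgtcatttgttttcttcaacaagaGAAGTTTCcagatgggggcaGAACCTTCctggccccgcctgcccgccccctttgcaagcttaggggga
Hspb8 chr5:116422847-116422870, - strand: agccaggaGAAGTTTCtaggctcg

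The element of Hspe1 began 89 bases and that of Dnajb6 46 bases before the transcript start, and that of Hsph1 lay 36 to 48 bases after it. The brightest probes of the 4 genes with the 3-unit element gave unequal differences. Hspd1 was at 1.69 (0.90 corrected), Hspe1 at 0.33 (0.12), Hsph1 at -0.15 (-0.25) and Dnajb6 at -0.63 (-0.26). Before the correction the other Dnajb6 probes gave 0.25, 0.09, 0.64 and 0.03, so the probes of Dnajb6 disagreed. The other measured probes gave 0.83 for Hspd1, 1.30 and 0.73 for Hspe1, and -0.49 for Hsph1. Of the other genes with GAANNTTC, the brightest probes of Hspb1 and Hspb8 gave 1.40 and 1.55. Those of Hspa1b, Dnaja1 and Hspb6 gave 0.27, 0.05 and 0.04, and those of Dnaja4, Dnajc27 and Hspa1a gave -0.09, -0.29 and -0.49. A second Hspb6 probe, above background on MeXis null alone, gave 1.91. Dnajc5g and Hspb3 were above background on neither array. These matches describe the letters in the promoter windows; binding of Hsf1 was not measured.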

How the data were processed

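Per the file headers, the deposited spot intensity is linear and came from Agilent Feature Extraction (version 11.5.1.1), which subtracted background, detrended the surface and gave each signal an error; probe coordinates are mm9. The deposited matrix held the same intensity in all 62976 features. Each processed signal was divided by its array's 75th percentile over the probes that both arrays detected (3535 for WT, 3723 for MeXis null). It was then put on a log2 scale with Python 3.11.15, numpy 2.4.6 and pandas 2.3.3. Normexp (offset 50) and quantile normalization came from limma 3.58.1. Normexp started from the raw mean and background signals of the spots in place of the processed signal, and the brightest probe was then picked anew. Control spots and spots marked as outliers (305 on WT, 205 on MeXis null) were left out, among them 1 Dnajc10 probe (2970 and 2701); no spot was saturated. The lowest signal well above background was 12.1 on WT and 27.3 on MeXis null. The brightest probe stood for a gene, chosen by its mean over both arrays.

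Both arrays lay on the same slide and were scanned together. Their number, 1 per genotype, limits the precision, and no test was possible. Steps were tested on simulated data. The genes given in full were those called at 2-fold, those with a bound of at least 2-fold (none here), and the textbook heat shock genes; of the pathway lists, the called genes; of the marker lists, the 2 highest and 2 lowest measured on both arrays, apart from 1 gene that is not reported here; Cd68, Lum, Cd5, Ear1 and Ear2 were added after values were seen. The members, roles and lists were chosen with earlier results of these data known, and the probe order along transcripts, Hsf1, Hsf2, Cryab and Cryaa were looked at after values were seen. Protein sequences and a genome were not used here. Alternatives in scaling, background, normalization, surface, filters, probe choice and threshold are given in the closing section.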

Additional observations from a re-analysis of the deposited data

How the results depend on the processing

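With 1 pooled array per genotype no setting supplies a replicate check, and dim genes such as Hspb2 and Hspb8 are limited by signal over background. No paired analysis was possible because each genotype has 1 array. The 8 genes called higher and 1 lower were the same 9 under median scaling, the 75th percentile of all probes and quantile normalization. They were also the same with no filter on dim probes and with no limit on the scanner error. That limit removed no gene at 2-fold: 1183 of all genes were higher and 705 lower with and without it. Dropping it therefore could not change the calls. Median scaling and the 75th percentile of all probes shifted every gene alike, moving the median of all genes from 0.05 to -0.01 and -0.02. The series matrix holds the same intensities, so its identical calls were fixed in advance. Scaling to the spike-in probes moved the median of all genes to -0.69, so that 1 chaperone gene was higher and 22 lower, with a median of -0.82; the co-chaperone list then had 0 higher, 6 lower and a median of -0.55. Spike-in scaling shifts all genes by the same amount, so the family's median relative to all genes could not change (-0.13 both times). The surface correction left 3 higher. With loess 2 were lower, the second being Dnajb13. The median of a gene's probes gave 5 higher, 0 lower, a median of 0.10 (all genes 0.14) and 0.011 for Hspa8; outlier spots kept gave 0 lower, and no filter on dim probes a median of 0.038 (all genes 0.47). With normexp 7 genes were called, 4 of them in common, Hspb2, Hspb8, Hspa14 (0.97), Dnajc24 (0.49) and Hspa8 (-0.99) being lost. Normexp changed the surface detrending as well as the background, and the parts of the 2 in these losses cannot be told apart. The stricter filter on dim probes left 7 by losing Hspb2 and Hspb8. The co-chaperone list had 1 gene higher under median scaling, the 75th percentile of all probes, quantile, loess and the surface correction, and 4 under normexp. At 1.5-fold 7 chaperones were lower, and the co-chaperone list had 6 higher and 3 lower; at 3-fold 2 chaperones were higher (Hspb2 and Hspd1), 0 lower, and 0 co-chaperones higher. Apart from the values given, the causes of these differences were not tested.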
